A study of Mus musculus with 721 samples.

Results

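The 4 genes described here, *Hhex*, *Hesx1*, *Lhx1* and *Gsc*, encode homeobox transcription factors of the anterior visceral endoderm (AVE). They were taken by symbol as 4 of the 24483 rows of the count table, 1 row each, and all 4 passed the filter on low counts as 4 of 17105 genes. RNA of single cells of wild type C57Bl/6Babr mouse embryos was sequenced by G&T-seq with SMART-seq2 chemistry at embryonic day (E) 3.5, 4.5, 5.5 and 6.5. The table holds 721 cells, which were separated into 37 embryos by the plate and number in the sample titles. For 9 cells of E3.5 the titles give no embryo number. These cells were counted as 1 embryo and may come from more than 1. A smaller number of embryos is given in the study, so some of those separated here may be the same animal, and p-values measure the spread between the embryos as separated.

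The labels name no treatment, and the groups are set by stage and cell class. Classes at E4.5 to E6.5 came from clustering with the 4 genes held out and are named from lineage markers. There were 99 inner cell mass (ICM) cells at E3.5, 78 primitive endoderm (PrE)-like and 27 epiblast-like cells at E4.5, and 8 endoderm-like cells at E5.5. At E6.5 there were 40 visceral endoderm (VE)-like and 24 primitive streak-like cells. The epiblast-like cells of E5.5 (9 embryos) and E6.5 (13 embryos) made up 35.9% and 25.8% of all cells. At E6.5 the study removed extra-embryonic tissue by dissection, so the VE-like cells are those that came with the embryonic part of the conceptus. Wells titled as doubles, which held 2 cells, made up 31 of the 78 PrE-like and 3 of the 40 VE-like wells.

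Visceral endoderm descends from the primitive endoderm and envelops the epiblast. The AVE is the group of visceral endoderm cells that comes to lie on the future anterior side, where it secretes Nodal and Wnt antagonists such as Cer1, Lefty1 and Dkk1 and keeps primitive streak formation to the opposite side. *Hhex* is among the earliest genes to mark these cells, and the paired-like repressor *Hesx1* is known from the AVE and later from forebrain and pituitary. *Lhx1* encodes a LIM homeodomain factor needed for head formation. *Gsc* is the classic homeobox gene of the organizer and is also found in the AVE and the anterior streak.

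The genes lie on 4 chromosomes of GRCm38, and in the GENCODE annotation of that build none overlaps another gene. *Hhex* occupies chr19:37434810-37440731 on the plus strand and *Hesx1* chr14:26994416-27002329 on the plus strand. *Lhx1* lies at chr11:84518284-84525535 and *Gsc* at chr12:104471209-104473330, both on the minus strand. The promoters of *Hhex* and *Hesx1*, the pair most often detected in the same cell at E4.5, follow from RefSeq (GRCm38.p6, 300 bases, chr19:37434591-37434890 and chr14:27000112-27000411, both plus strand). CG dinucleotides are in capitals.
Hhex: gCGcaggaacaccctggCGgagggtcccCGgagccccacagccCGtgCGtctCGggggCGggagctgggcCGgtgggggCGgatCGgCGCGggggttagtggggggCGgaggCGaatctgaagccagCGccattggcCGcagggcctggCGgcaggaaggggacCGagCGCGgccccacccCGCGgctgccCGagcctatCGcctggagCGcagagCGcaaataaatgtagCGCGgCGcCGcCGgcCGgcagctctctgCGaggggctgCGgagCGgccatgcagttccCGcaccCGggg
Hesx1: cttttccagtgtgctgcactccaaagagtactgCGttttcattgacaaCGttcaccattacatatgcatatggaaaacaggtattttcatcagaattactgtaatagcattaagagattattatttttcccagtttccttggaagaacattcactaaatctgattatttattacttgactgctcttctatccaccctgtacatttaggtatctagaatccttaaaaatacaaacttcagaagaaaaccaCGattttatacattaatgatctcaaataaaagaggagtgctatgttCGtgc
These promoters differ widely in base composition. That of *Hhex* held 37 CG dinucleotides and 75.7% G and C, and that of *Hesx1* held 4 and 33.7%. *Lhx1* had 31 and 65.7% and *Gsc* 25 and 60.3%, against medians of 7 and 52.7% over 32851 mouse promoters. Homeodomain and forkhead motifs were searched on both strands. The paired-type homeodomain core TAATTA (in 5.29% of all promoters), the bicoid-type TAATCC used by Gsc and Otx2 (7.06%) and the forkhead core TGTTTAC (3.65%) matched no member's window. The FoxH1-type motif AATNNACA (12.2%) matched the *Hesx1* promoter once, on the minus strand, with its first base at -54 from the RefSeq start. For *Hesx1* that start and its window lie inside the GENCODE gene given above, not at its first base.

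Cells held 66896 to 3792936 counts, with a median of 692863, and no 2 cells had the same counts. Levels are in CPM, a gene's counts relative to all counts of the library. For an embryo they come from the summed counts of its cells of a class (at least 3 cells), scaled by TMM. A gene was taken as detected in a cell at 10 CPM or more. Of the 24 endoderm markers, 18 were detected in at least 50% of PrE-like cells and 20 in at least 50% of E6.5 VE-like cells, and their summed level, averaged over the cells of an embryo, was 13831 to 23652 CPM and 12593 to 42295 CPM. The epiblast-like classes had 1699 to 4446 CPM at E4.5, 593 to 972 at E5.5 and 754 to 6124 at E6.5, so E6.5 epiblast-like embryos reached further towards the endoderm levels. In 19 E6.5 epiblast-like cells the endoderm markers had a higher mean than the epiblast markers, and the same check went against 2 of the 78 PrE-like cells.

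In primitive endoderm-like cells at E4.5, *Hhex* and *Hesx1* were present together while *Lhx1* was low and *Gsc* close to 0. *Hesx1* was at 88.9, 70.5, 132.1, 201.1 and 168.9 CPM in embryos 1 to 5, and at 0 in epiblast-like cells of embryos 1 to 4 and 0.336 CPM in embryo 5. Every embryo thus had *Hesx1* in its PrE-like cells and nearly none in its epiblast-like cells. *Hhex* was at 98.4, 85.3, 42.1, 78.4 and 26.96 CPM in the PrE-like cells and at 2.25, 0, 0, 7.47 and 0.840 CPM in the epiblast-like cells. The lowest PrE-like embryo lay above the highest epiblast-like embryo.

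*Lhx1* was at 5.78, 8.38, 2.27, 7.51 and 6.63 CPM in PrE-like cells and had 0 counts in the 27 epiblast-like cells, which allows up to 0.158 CPM there. *Gsc* was at 1.25 and 4.30 CPM in the PrE-like cells of embryos 1 and 2 and at 0 in the other embryos, and in epiblast-like cells it was at 4.04 CPM in embryo 2 and at 0 elsewhere. *Gsc* was thus near 0 in both lineages.

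The lineages were compared by the quasi-likelihood test of edgeR, and p was adjusted over all genes (Benjamini-Hochberg); genes past 0.05 with log2 fold changes beyond 2 were called. These were 709 of the 17105 genes (4.14%; 2.5% higher and 1.65% lower in PrE-like cells), and 2 of the 4 members were among them, both higher. *Hesx1* was higher in PrE-like cells (adjusted p = 0.00295): against the 2 counts in epiblast-like cells the ratio was 1550-fold, with a 95% counting interval of 429 to 12804. *Lhx1* was higher (adjusted p = 0.0101), by at least 41.7-fold against the 3 counts over the group that a count of 0 allows. *Hhex* had a log2 fold change of 4.91 ± 1.61 (SE; 5 embryos in each lineage) and missed the adjusted threshold (0.0591), and *Gsc* had 0.70 ± 1.74 (adjusted p = 0.938).

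The embryo sums of *Hhex*, *Hesx1* and *Lhx1* did not overlap between the lineages, as was so for 10.7% of all genes. For each of these 3 genes an exact two-sided permutation test of log2(CPM + 1) gave p = 0.00794, the smallest that 5 against 5 embryo sums allow. Both lineages came from the same 5 embryos, and this test took their sums as independent. *Hhex* passed with the embryo as a block (adjusted p = 0.00253) and by DESeq2 (0.00344), whereas *Lhx1* did not pass with the block (0.0639). On classes from Ward clustering in place of consensus k-means none of the 4 was called, where 1.88% of all genes were. Adjusted p was then 0.151 for *Hesx1*, 0.0681 for *Lhx1* and 0.234 for *Hhex*.

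**Figure D1:**
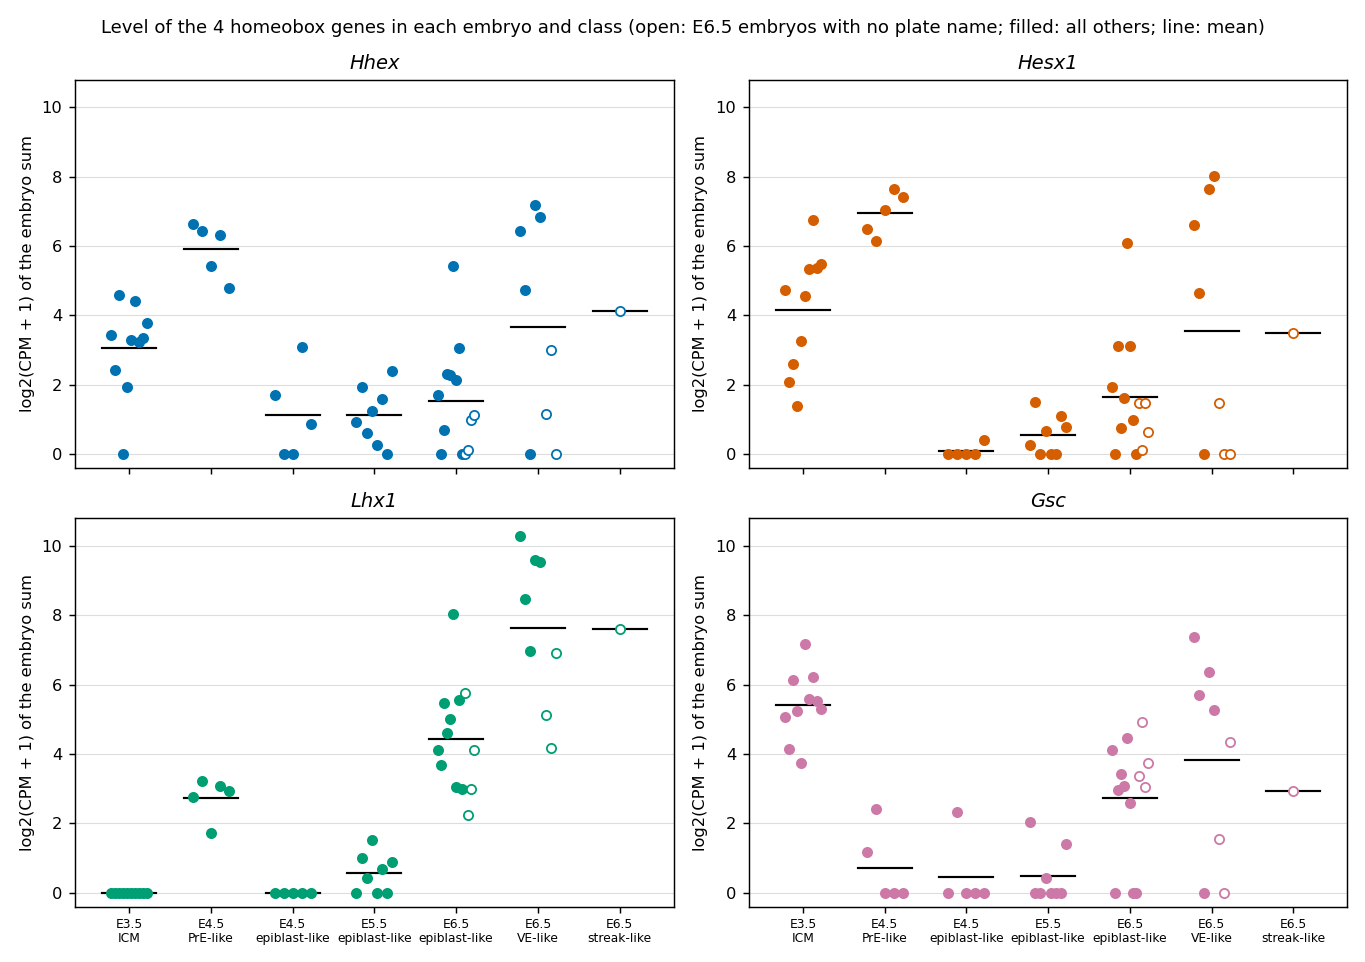
Level of each gene in every embryo, as log2(CPM + 1) of the sum over the cells of a class (y axis), by class (x axis). Each point is an embryo, open points are E6.5 embryos with no plate name and the line is the mean; *Lhx1* is at 0 in all E3.5 embryos and highest in E6.5 VE-like cells, while *Gsc* is higher at E3.5 than in every E4.5 PrE-like embryo.

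The ICM at E3.5 differed from the PrE-like cells in which of the genes it held. *Gsc* was at 12.3 to 142.6 CPM in the 10 embryos (median 42.04) and was detected in 68 of 99 cells, above all PrE-like embryos (0 to 4.30 CPM). *Hesx1* was at 1.61 to 105.99 CPM (median 24.3) and overlapped the PrE-like range. *Hhex* was at 0 to 23.1 CPM (median 9.05), below every PrE-like embryo. *Lhx1* had no count among 58421490 in the ICM, which allows 0.0514 CPM, and its PrE-like level was at least 128.7-fold above the 3 counts that this allows. Non-overlap of the kind seen for *Gsc*, *Hhex* and *Lhx1* held for 7.5% of all genes, and no test was run on the E3.5 cells.

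At E6.5 all 4 genes had their highest embryo sums in VE-like cells, and *Lhx1* stood out in the number of cells. *Lhx1* ranged from 17.02 to 1250.4 CPM over the 8 embryos with at least 3 VE-like cells (median 240.4; mean 427 ± 449, SD), and from 3.75 to 262.8 CPM over 13 embryos in epiblast-like cells (median 16.3; mean 40.7 ± 68.7). *Hhex* ranged from 0 to 146.1 CPM in VE-like (median 16.2) and from 0 to 41.9 in epiblast-like cells (median 1.199). *Hesx1* ranged from 0 to 261.7 CPM (median 12.9) and from 0 to 67.3 (median 1.78). *Gsc* ranged from 0 to 165.8 CPM (median 28.3) and from 0 to 29.2 (median 7.52). The highest epiblast-like values of *Hhex*, *Hesx1* and *Lhx1* came from embryo 6 of plate P2. There 1 of 7 epiblast-like cells had *Hhex* and *Hesx1* detected, and the embryo held 375 of the 672 *Hhex* counts of the class. For each gene the embryos of the classes overlapped, whereas 0.456% of all genes did not.

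The VE-like against epiblast-like test at E6.5, with a log2 limit of 1, called 14.7% of all genes, 6.13% as higher and 8.58% as lower in VE-like cells, and 3 of the 4 members as higher. *Lhx1* was higher by a log2 fold change of 3.39 ± 0.71 (adjusted p = 0.00153), *Hesx1* by 3.32 ± 1.007 (adjusted p = 0.0195) and *Hhex* by 3.21 ± 0.98 (adjusted p = 0.0196). *Gsc* had 2.21 ± 1.04 (adjusted p = 0.127). With the embryo as a block, over the 8 embryos that held both classes, none of the 4 was called, where 4.96% of all genes were. Adjusted p was 0.068 for *Lhx1*, 0.278 for *Hhex* and 0.639 for *Hesx1* with the block. Without embryo 7 of plate P3 only *Lhx1* was called, and without embryo 8 of plate P3 *Hesx1* was lost, with log2 fold changes of 2.55 to 5.21 for *Hesx1* over all omissions of 1 embryo.

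The members were detected in fewer VE-like cells where the titles name no plate. The titles of 8 embryos with VE-like cells name plates P1 to P3, and those of the other 4, of which 2 are titled E6.75, name no plate. On plates P1 to P3, 27 VE-like cells had *Hhex* detected in 17, *Hesx1* in 14, *Lhx1* in 24 and *Gsc* in 16. In the 13 cells without a plate name the numbers were 1, 0, 9 and 1. The median depth was 882101 counts on the plates and 816270 without a plate name, and *Cer1*, the secreted antagonist that is a leading AVE marker, was detected in 18 of 27 and in 3 of 13 cells. Plate and embryo of origin cannot be told apart in this difference, which was not tested.

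Within the plates, where 7.52% of all genes were called, *Lhx1*, *Hesx1* and *Hhex* remained called against epiblast-like cells. Their log2 fold changes were 3.75, 3.58 and 3.44 (adjusted p = 0.00478, 0.0349 and 0.0388). Within the embryos without a plate name, none was called, where 1.66% of all genes were. *Hesx1* and *Gsc* had the opposite sign there (-0.64 and -1.09). Two-sided exact permutation tests on log2(CPM + 1) over all embryos gave p = 0.002 for *Lhx1*, 0.052 for *Hhex* and 0.12 for *Hesx1* (8 against 13 embryo sums). The 8 embryos with VE-like sums are all among the 13, and these tests took the sums as independent.

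**Figure D2:**
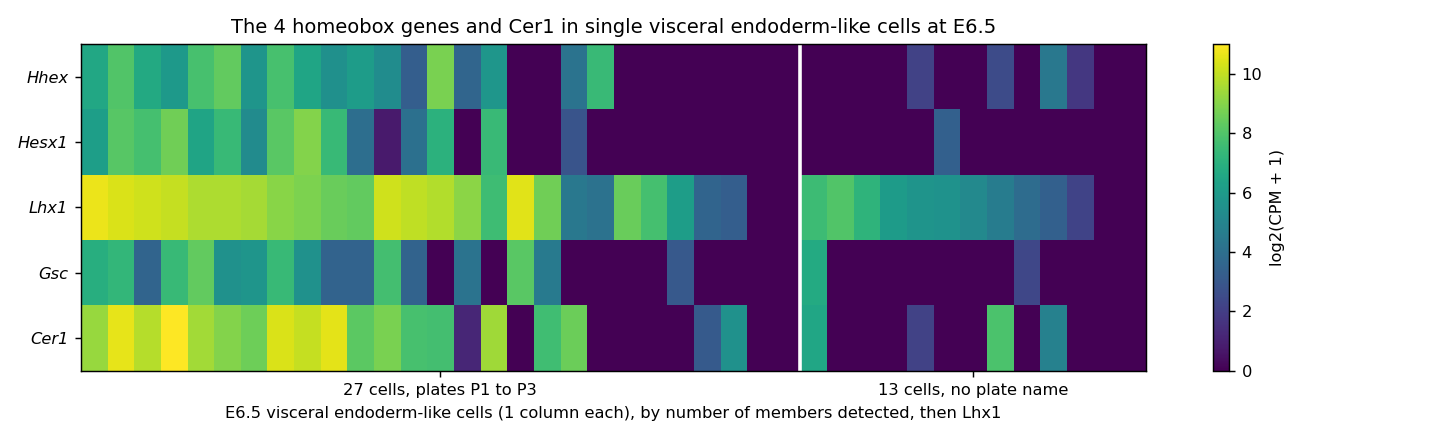
The 4 genes and *Cer1* in each of the 40 E6.5 VE-like cells, as log2(CPM + 1) in colour; columns are cells, ordered by the number of members detected and then by *Lhx1*, with the 27 cells of plates P1 to P3 left of the white line and the 13 cells without a plate name right of it. The 11 cells with all 4 members stand at the left and all have *Cer1*, and *Hesx1* is detected in none of the 13 cells at the right.

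From PrE-like cells at E4.5 to VE-like cells at E6.5, *Lhx1* and *Gsc* were higher whereas *Hhex* and *Hesx1* were not called. This test called 11% of all genes, 3.9% as higher and 7.11% as lower at E6.5. *Lhx1* rose by a log2 fold change of 6.12 ± 1.21 (adjusted p = 0.000743; 8 against 5 embryos), its lowest E6.5 embryo (17.02 CPM) lay above the highest E4.5 embryo (8.38 CPM), and such non-overlap held for 5.82% of genes. *Gsc* rose by 5.39 ± 1.77 (adjusted p = 0.0389), although 2 of 8 VE-like embryos had no *Gsc* count and leaving out any of 6 of the 13 embryos ended its call (embryos 1, 3, 4 and 5 at E4.5 and, at E6.5, embryo 2 of plate P1 and embryo 7 of plate P3; adjusted p from 0.0544 to 0.0857), as did leaving out doubles (adjusted p = 0.114). *Hesx1* had -0.87 ± 1.24 (adjusted p = 0.75) and *Hhex* -0.49 ± 1.21 (adjusted p = 0.904).

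The intervals of the last 2 were wide: the 95% interval of the log2 fold change ran from -3.29 to 1.56 for *Hesx1* and from -2.86 to 1.89 for *Hhex*. Within the 3 embryos with such VE-like sums and no plate name, where 4.13% of all genes were called, *Hesx1* fell by 7.61 on the log2 scale and was called. These VE-like sums held 13, 0 and 0 *Hesx1* counts, so the size of the fall is poorly fixed. *Lhx1* had 3.19 there and was not called (adjusted p = 0.157). On plates P1 to P3, where 13.6% of all genes were called, *Lhx1* had 6.78 and was called. The exact permutation p was 0.00155 for *Lhx1* and 0.0559 for *Gsc*.

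The lineage difference itself was compared between the stages. This interaction called 2.83% of all genes (0.848% larger and 1.98% smaller at E6.5) and none of the 4 members. *Hesx1* had the lowest adjusted p (0.0708), with a lineage difference smaller by 6.95 ± 2.27 on the log2 scale at E6.5. At an unadjusted p under 0.05 *Hesx1* and *Lhx1* passed (p = 0.00343 and 0.0482), and DESeq2 called *Hesx1* (adjusted p = 0.00995). For both genes the E4.5 difference rests on epiblast-like cells with 2 *Hesx1* counts and 0 *Lhx1* counts, so its size is poorly fixed.

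In the epiblast lineage the 4 genes were near 0 at E5.5, and 3 of them were higher at E6.5. At E5.5 the embryo sums of 8 embryos reached 4.31 CPM at most for *Hhex*, 1.84 for *Hesx1*, 1.90 for *Lhx1* and 3.14 for *Gsc*, and 90.3% of cells had none detected. Between E4.5 and E5.5 none of the 4 was called by edgeR, where 5.36% of all genes were called (2.32% as higher and 3.05% as lower), nor by DESeq2, and the embryos overlapped for each member, as they did not for 8.88% of genes; *Lhx1* had an unadjusted p of 0.0332 and the others were above 0.05. Between E5.5 and E6.5 the test called 12.5% of all genes, 6% as higher and 6.48% as lower. *Lhx1* rose by 6.08 ± 0.97 on the log2 scale (adjusted p = 2.83e-05; 13 against 8 embryos), with no overlap between the stages, which 1.82% of genes shared.

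*Gsc* rose by 3.85 ± 1.27 (adjusted p = 0.0348) and *Hesx1* by 3.67 ± 1.19 (adjusted p = 0.0321). *Hhex* had 1.74 ± 1.04 (adjusted p = 0.287). The exact permutation p was 9.83e-06 for *Lhx1*, 0.00382 for *Gsc* and 0.0565 for *Hesx1*. Endoderm markers moved in the same comparison: 17 of 24 were called as higher at E6.5 and none as lower. Without the 19 epiblast-like cells whose own markers were higher for endoderm, *Lhx1* rose by 4.29 in place of 6.08 (adjusted p = 0.00099). *Hesx1* was then at 1.68 and not called (adjusted p = 0.313). Cells with endoderm markers below their epiblast markers stayed in, and the source of the *Lhx1* rise was not tested.

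Of the 888 *Hesx1* counts in E6.5 epiblast-like cells, 602 came from embryo 6 on plate P2, where 1 of 7 cells had the gene detected. That cell was the only epiblast-like cell with all 4 members, at 202.2 CPM *Hhex*, 325 CPM *Hesx1*, 205.97 CPM *Lhx1* and 101.4 CPM *Gsc*. It also had 997 CPM *Cer1* and 0 CPM *Pou5f1*, the pluripotency factor that marks the epiblast. Without that embryo *Hesx1* had a log2 fold change of 1.96 and was not called (adjusted p = 0.179). The *Hesx1* call was also lost without embryo 1, 2, 3, 6, 7 or 9 of E5.5, and the *Gsc* call without embryo 1, 2, 3, 4, 8 or 9 of E5.5 or embryo 2 without a plate name of E6.5, with log2 fold changes of 1.96 to 4.25 for *Hesx1* and 3.54 to 4.98 for *Gsc* over all 21 omissions. By contrast, *Lhx1* kept its call in all of them, and it was detected in 59 and *Gsc* in 35 of the epiblast-like cells (31.7% and 18.8%), in 13 and 10 of 13 embryos.

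**Figure D3:**
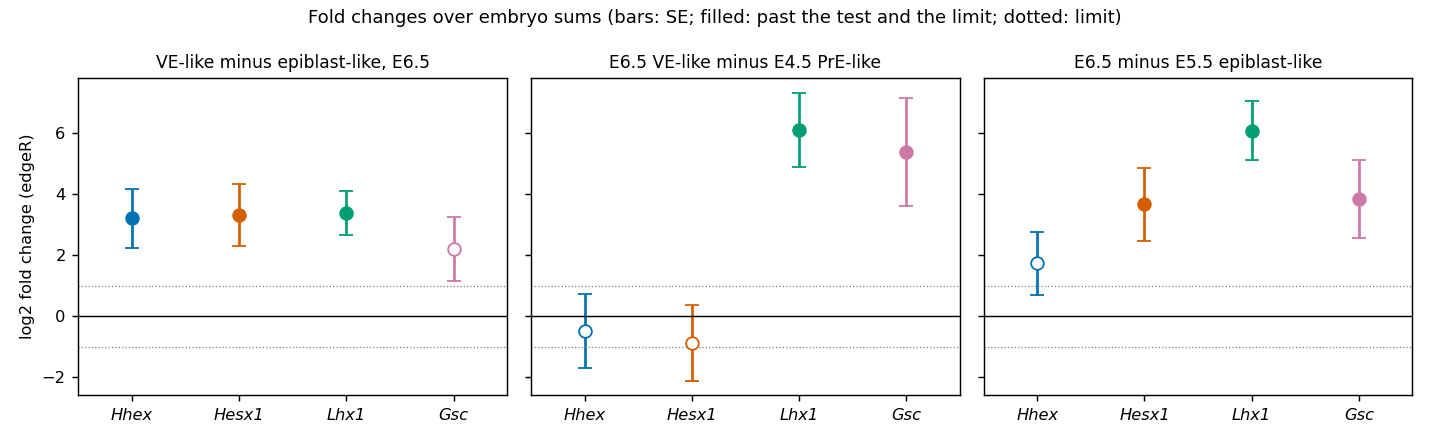
Log2 fold changes from the edgeR fit (y axis) for the 4 genes in 3 comparisons; points are estimates, bars are standard errors, filled points passed the test and the log2 limit of 1 (dotted). *Lhx1* is filled in all 3 panels, and *Hhex* and *Hesx1* lie below 0 and are open in the comparison of E6.5 VE-like with E4.5 PrE-like cells.

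Ordered by mean level over embryos, *Lhx1* went from E6.5 VE-like (427 CPM) through the streak-like cells of 1 embryo (195.04) and E6.5 epiblast-like cells (40.7) to E4.5 PrE-like cells (6.11), E5.5 epiblast-like cells (0.589) and 0 in E4.5 epiblast-like and in ICM cells. *Hhex* went from PrE-like (66.2 CPM) to VE-like (47.3), streak-like (16.4), E3.5 (9.99), E6.5 epiblast-like (5.04), E4.5 epiblast-like (2.11) and E5.5 epiblast-like cells (1.51). *Hesx1* went from PrE-like (132.3 CPM) to VE-like (72.7), E3.5 (29.6), streak-like (10.2), E6.5 (7.19), E5.5 (0.561) and E4.5 epiblast-like cells (0.0672). *Gsc* went from E3.5 (51.5 CPM) to VE-like (44.5), E6.5 epiblast-like (9.56), streak-like (6.68), PrE-like (1.11) and the epiblast-like cells of E4.5 (0.808) and of E5.5 (0.640). Neighbours in these orders overlapped in their embryos except for *Lhx1* in PrE-like and E5.5 epiblast-like cells and for *Gsc* in the 1 streak-like embryo, which lay above the PrE-like embryos (0 to 4.30 CPM).

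At E5.5 there were 8 endoderm-like cells, too few embryos for a test. The titles label 5 of them as VE, all from embryo 7, and the other 3 came from 3 embryos. *Lhx1* was detected in 7 of the 8 cells, at 37.4 to 743 CPM. *Hesx1* was detected in 5, at 14.3 to 317 CPM. *Gsc* was detected in 4 (64.3 to 173.99 CPM) and *Hhex* in 2 (21.4 and 411 CPM).

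The 5 labelled VE cells of embryo 7 held different combinations. One had *Hhex* at 411 CPM, *Lhx1* at 53.6, *Gsc* at 97.6 and no *Hesx1*. A pair of cells had *Hesx1* (284 and 317 CPM) with *Lhx1* (147.2 and 298) and *Gsc* (89.999 and 173.99) but no *Hhex* count. Another had *Hesx1* at 315 and *Lhx1* at 191.7 CPM with 5 counts of *Hhex*, and the last had *Lhx1* at 743 CPM with *Hhex* and *Gsc* at 4.01 CPM and no *Hesx1*. *Hhex* and *Hesx1* were thus not detected together in any of these 5 cells. Of the other 3 cells, the double of another embryo had both, *Hhex* at 21.4 and *Hesx1* at 14.3 CPM, with *Gsc* at 64.3 CPM. Another had higher trophoblast than endoderm markers (a mean log2 level of 6.90 against 4.20) and *Lhx1* alone.

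Co-detection in single cells was counted by class, without a test. No epiblast-like cell at E4.5 had 2 or more members (0 of 27, which allows a share of up to 11.1%), and 2 cells (0.772%) did at E5.5. Among PrE-like cells 57 of 78 had 2 or more, among E6.5 VE-like cells 21 of 40, among E6.5 epiblast-like cells 30 (16.1%) and among E3.5 cells 52 of 99. All 4 were detected in 11 of 40 VE-like cells, in 1 PrE-like, 1 epiblast-like and 1 streak-like cell, and in no other cell.

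In the ICM the commonest was *Hesx1* with *Gsc* (27 of 99 cells), followed by *Gsc* alone (18) and *Hhex* with *Hesx1* and *Gsc* (17). In PrE-like cells *Hhex* with *Hesx1* made up 40 of 78, *Hesx1* alone 17 and *Hhex* with *Hesx1* and *Lhx1* 10. *Hhex* and *Hesx1* were both detected in 51 PrE-like cells in all. Their shares within each embryo give 51.1 expected cells, so this overlap is what the frequency of each gene gives. In VE-like cells *Lhx1* alone (12 of 40) and all 4 together (11) were the most frequent. In epiblast-like cells at E6.5 *Lhx1* alone (32 cells), *Gsc* alone (15) and *Lhx1* with *Gsc* (13) led.

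Within VE-like cells *Lhx1* was the most widely detected member (33 of 40 cells). It was detected in all 17 cells with *Gsc* and in all 14 with *Hesx1*, and *Hhex* in 13 of the 14 cells with *Hesx1*. From the shares within each embryo, 16.35 cells with *Lhx1* and *Gsc* and 13.6 with *Lhx1* and *Hesx1* are expected, so these overlaps lie close to what the frequency of *Lhx1* gives, and 10.45 are expected for *Hhex* with *Hesx1*. *Hhex* and *Gsc*, in 18 and 17 cells, shared 13, and 1 cell had *Hhex* alone. The 11 cells with all 4 members came from 5 embryos on plates P1 to P3, and only 1 of them was a double. Embryo 8 of plate P3 gave 5 of the 11. Some lay just past the detection limit, with *Gsc* at 10.20, 10.41 and 10.61 CPM. Another cell held 76937 counts in all, with 4 of *Hhex*, 3 of *Hesx1* and 4 of *Gsc*. In the 11 cells *Lhx1* was at 324 to 1642 CPM and *Cer1* at 298 to 2122 CPM.

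**Figure D4:**
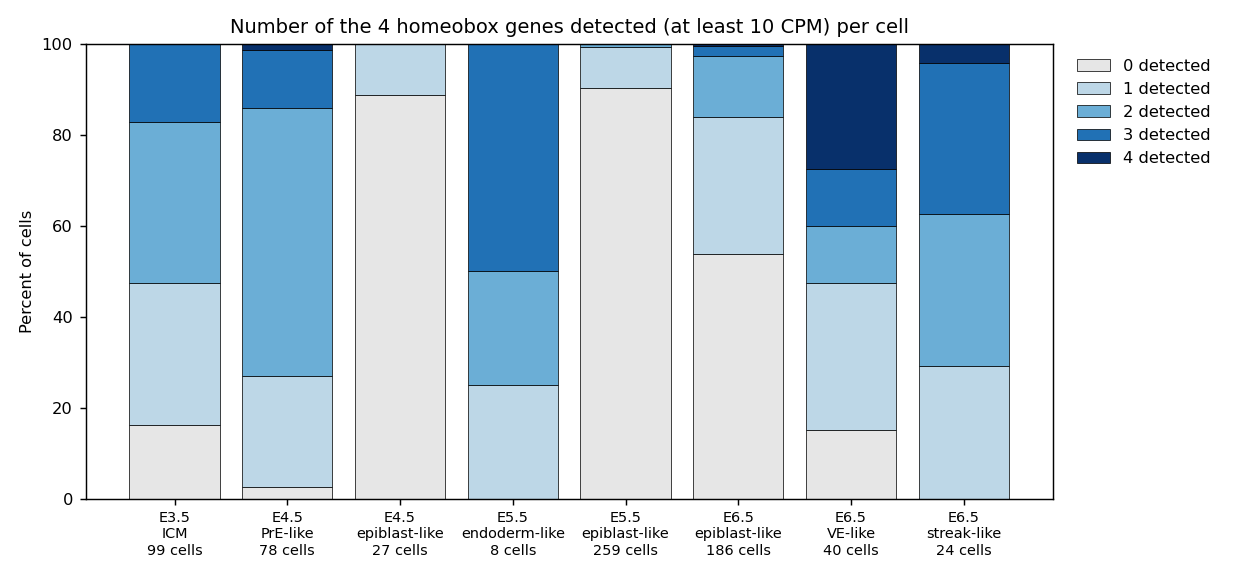
Percent of cells (y axis, stacked bars) with 0 to 4 of the genes detected at 10 CPM or more, by class (x axis, with the number of cells). All 4 genes are detected in 27.5% of E6.5 VE-like cells, and none is detected in 88.9% of epiblast-like cells at E4.5 and 90.3% at E5.5.

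Over embryos, the share of cells with 2 or more members was 61.1% to 88.9% in the 5 PrE-like groups (mean 74.8 ± 9.83%, SD) and 0% to 100% in the 8 VE-like groups (46.6 ± 45.6%). VE-like cells were 28.3 points lower, within the spread of the VE-like embryos. E6.5 epiblast-like cells had 0% to 33.3% (13.04 ± 11.7%, n = 13), 33.5 points below the VE-like cells, and the ranges overlapped. On plates P1 to P3 the VE-like mean was 69.5%, 5.31 points below PrE-like and 59.01 points above epiblast-like cells. Without a plate name it was 8.33%, 66.5 points below PrE-like and 10.4 points below epiblast-like cells. Among wells with 1 cell the share was 32 of 47 for PrE-like and 19 of 37 for VE-like cells.

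With every cell thinned to 300000 counts, which left out 46 cells, 74.7% of PrE-like, 57.9% of VE-like, 13.5% of E6.5 epiblast-like and 1.195% of E5.5 epiblast-like cells had 2 or more members. The unthinned shares were 73.1%, 52.5%, 16.1% and 0.772%, in the same order for these 4 classes. Thinning moved the share from 70.8% to 78.9% in streak-like cells, from 75% to 71.4% in the E5.5 endoderm-like cells and from 52.5% to 49.4% at E3.5, so the order among all classes did change.

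Other AVE genes accompanied the members in VE-like cells. *Cer1* was detected in 18 of the 21 cells with 2 or more members and in 3 of the other 19. *Lefty1*, a Nodal antagonist, was detected in 14 and 1, and the Wnt antagonist *Dkk1* in 15 and 6. The Wnt antagonists *Sfrp1* and *Sfrp5* were detected in 20 and 13 of the 21 cells, and in 12 and 3 of the 19. *Foxa2*, a forkhead factor of endoderm, was detected in 16 and 14 and the T-box factor *Eomes* in 20 and 17, so these were frequent in both sets of cells. A similar split was seen on plates P1 to P3 for *Cer1* (17 of 20 cells against 1 of 7) and *Lefty1* (14 against 0). On these plates *Foxa2* also differed (16 of 20 against 3 of 7), while *Eomes* was frequent in both sets (19 and 6). The cells with 2 or more members had the lower median depth (753883 against 1016210 counts).

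Across the 40 VE-like cells, which share embryos and plates, log2(CPM + 1) of *Hhex* and *Hesx1* had a Pearson correlation of 0.82, and *Lhx1* and *Gsc* one of 0.70. Within plates P1 to P3 the values were 0.81 and 0.70 (27 cells). Across the 78 PrE-like cells *Hhex* and *Hesx1* had -0.02, although 51 cells had both, and across all 50 embryo sums, which differ in class and stage, they had 0.87. The genes most like *Hhex* in VE-like cells were *Cer1* (0.77), *Lefty1* (0.63), *Cxadr* (0.61), *Cst3* (0.60) and *Cd24a* (0.59). Those most like *Hesx1* were *Cer1* (0.81), *Kalrn* (0.68), *Cxadr* (0.65), *Sfrp1* (0.65) and *Cd24a* (0.65).

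Among those most like *Lhx1* were *Fgf5* (0.80), *Sfrp1* (0.78), *Krt8* (0.75) and *Mest* (0.72), and those most like *Gsc* were *Fgfbp1* (0.80), *Tpm1* (0.70), *Sfrp1* (0.68), *Fzd5* (0.64) and *Tpm3* (0.64). Across embryo sums *Lhx1* was most like *Cyp26a1* (0.93), a retinoic acid degrading enzyme, then *Clic6* (0.90), *Apob* (0.88), *Cer1* (0.88) and *Tmprss2* (0.88). There *Hhex* was most like *Akr1c13* (0.72), *Frk* (0.67), *H47* (0.67) and *Mesdc2* (0.66), and *Hesx1* like *H47* (0.73), *Akr1c13* (0.73), *Mesdc2* (0.72), *Lrpap1* (0.72) and *Scube2* (0.71). *Gsc* was most like *Fam101b* (0.74), *Baz2b* (0.72) and *Ak4* (0.72).

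Of 12 further AVE genes, 6 were called as higher in VE-like than in epiblast-like cells at E6.5 and none as lower, against 6.13% and 8.58% of all genes. The median log2 fold change of the 12 was 2.25, against -0.25 over all genes. The 6 called were *Cer1* (2.96 ± 0.82), *Lefty1* (3.07 ± 1.004), *Dkk1* (3.51 ± 0.92), *Foxa2* (3.34 ± 0.75), *Sfrp1* (1.92 ± 0.54) and the Wnt receptor *Fzd5* (2.30 ± 0.65). At E4.5 *Dkk1* (8.06 ± 1.77) and *Foxa2* (6.09 ± 1.34) were higher in PrE-like cells and *Otx2*, a homeobox gene of the AVE and the epiblast, was lower (-4.68 ± 0.92). The median was 0.23 over the 12 and 0.02 over all genes, of which 2.5% were called as higher and 1.65% as lower.

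From PrE-like to VE-like cells 8 of the 12 were called as higher and none as lower, against 3.9% and 7.11% of all genes. The median was 3.93, against -0.04 over all genes. *Cer1* was at 0.129 ± 0.288 CPM in PrE-like and 333 ± 410 CPM in VE-like embryos, *Otx2* rose by 6.05 ± 0.96, *Eomes* by 1.76 ± 0.51 and *Sfrp1* by 3.89 ± 0.84. *Dkk1* (-0.06 ± 1.14) and *Lefty1* (-0.74 ± 1.24), singled out after their values were seen, were not called, as was so for *Hhex* and *Hesx1*. *Dkk1* was at 210.6 ± 59.9 CPM in PrE-like and 201.8 ± 301 CPM in VE-like embryos. In epiblast-like cells 7 of the 12 were higher at E6.5 than at E5.5, among them *Cer1* (0 in all 8 E5.5 embryos and 42.8 ± 55.01 CPM at E6.5), *Dkk1* (6.03 ± 1.24), *Foxa2* (7.51 ± 1.11) and *Eomes* (3.46 ± 0.44), and none was called between E4.5 and E5.5. From E5.5 to E6.5, 17 of the 24 endoderm markers were also called as higher in these cells, among them *Ttr* (7.34) and *Afp* (6.70). The lineage difference was called as larger at E6.5 for 3 of the 12, *Otx2*, *Shisa2* and *Fzd5*, and for 0.848% of all genes.

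Nodal is the signal that Cer1 and the Lefty proteins restrain. Of 16 listed genes of its pathway 15 were tested. At E6.5, 3 were lower in VE-like than in epiblast-like cells and none was higher, against 8.58% and 6.13% of all genes. The median was -0.58, against -0.25 over all genes. The Nodal co-receptor *Tdgf1* was lower at E6.5 (-3.21 ± 0.50, beside *Acvr2b* and *Lefty2*) and at E4.5 (-4.25 ± 0.69), where *Gdf3* was lower too (-3.68 ± 1.12). *Nodal* itself had 0.57 ± 1.14 at E4.5 and -1.03 ± 0.83 at E6.5 and was not called. From PrE-like to VE-like cells *Lefty2* fell by 8.05 ± 1.54 on the log2 scale and *Trim33* rose by 1.96 ± 0.57.

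Among 11 cofactors, the LIM cofactors that bind LHX1 and the Groucho corepressors that HESX1 and HHEX recruit, the corepressor *Tle4* was lower in PrE-like (-2.39 ± 0.73) and in VE-like cells (-2.07 ± 0.54) than in epiblast-like cells. *Ldb2* and *Ssbp2* were also lower in VE-like cells. The list's medians were -0.13 at E4.5 (all genes 0.02) and -0.31 at E6.5 (all genes -0.25). The main LIM cofactor gene *Ldb1* had -1.23 ± 0.53 at E4.5 and -0.54 ± 0.37 at E6.5 and was not called. Of 24 other homeobox genes, 2 were higher and 2 lower in PrE-like cells, and 3 were higher and 5 lower in VE-like cells. Over all genes 2.5% were higher and 1.65% lower at E4.5, and 6.13% and 8.58% at E6.5. The median over the 24 was 0.02 at E4.5, as over all genes, and -0.43 at E6.5 (all genes -0.25). *Msx2* was higher in VE-like cells (4.61 ± 1.22).

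The 24 streak-like cells came from 1 embryo without a plate name, so no test was possible. All 12 streak markers were detected in at least 50% of these cells, as were 20 of the 24 endoderm markers. *Lhx1* was detected in 23, *Hhex* in 12, *Hesx1* in 11 and *Gsc* in 5, and 17 had 2 or more members. The sum over the cells was 195.04 CPM for *Lhx1*, 16.4 for *Hhex*, 10.2 for *Hesx1* and 6.68 for *Gsc*. *Lhx1* alone was seen in 6 of these cells and *Hhex* with *Hesx1* and *Lhx1* in 5.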

How the data were processed

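Single cells of wild type embryos were sequenced by G&T-seq. The deposited count table holds whole-number read counts per gene and cell, which the authors made from reads trimmed with Trim Galore 0.4.3 and mapped with HISAT2 2.0.5 (versions as in the submitters' processing notes) to GRCm38 and quantified in SeqMonk. Cells of low quality, trophoblast cells and wells with more than a pair of cells had been removed by the authors.

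The members and gene lists were chosen with earlier results of these data known. Cells from E4.5 on were grouped by consensus k-means (scikit-learn 1.9.0) with the members and listed genes held out, and classes were named by lineage markers; doubles were kept and no doublet caller was run. No column of the table was left unmapped. Counts were summed per class and embryo (at least 3 cells) and fitted over all classes with edgeR 4.0.16 (TMM, filterByExpr, glmQLFTest; R 4.3.3), with an adjusted p of 0.05 and a log2 limit of 2 at E4.5 and 1 elsewhere. The SE of a log2 fold change is its size over the root of F, and intervals at 95% cover this error. Counting intervals and floors of 3 counts cover counting error only. Single members were also compared by exact two-sided permutation tests on log2(CPM + 1) (scipy 1.17.1). These took the sums as independent, also where the same embryos gave sums to both classes. Besides the members, the text names up to 6 genes a list in list order, called ones before others, and the 5 genes most like each member; a few genes that this rule names are not reported here.

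The pairing of classes comes from the same embryo. Deviations of the classes of 1 embryo from their group means correlated at 0.0228 to 0.124 (5 embryos, E4.5) and 0.0435 to 0.174 (8 embryos, E6.5). Alternatives were DESeq2 1.42.0, another normalization, other filters and clusterings, thinning to 300000 counts, omission of doubles, of E6.75 cells or of 1 embryo at a time, and the embryo as a block. The exact tests, 8 clusters at E6.5 and the omission of cells with markers against their class were added after seeing the data. The fit was tested on simulated sums with known changes. It called unchanged genes more often than its nominal rate in the E6.5 lineage comparison and both epiblast comparisons. Of 200 genes changed 8-fold it recovered 81 in the E6.5 lineage comparison and also called 39 unchanged genes. In the epiblast comparisons these numbers were 60 and 29 (E4.5 to E5.5) and 81 and 61 (E5.5 to E6.5). They were 46 and 0 between the E4.5 lineages and 54 and 1 from PrE-like to VE-like cells. Member calls in the E6.5 lineage and E5.5 to E6.5 comparisons are to be read with this excess.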

Additional observations from a re-analysis of the deposited data

Results flagged for a closer look

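Of 25 groups of embryos examined for a value far from the others, 5 had one. Chance gives about 1 in 20 for normally distributed values, but in 3 of the 5 every other embryo was at 0, where any single value above 0 is picked out, so the number of such groups cannot be read against chance. At E3.5, *Gsc* was at 142.6 CPM in embryo 5 of plate P8 (next highest 73.3) and *Hesx1* at 105.99 CPM in embryo 7 of plate P9 (next 43.5). In E4.5 epiblast-like cells, *Gsc* was at 4.04 CPM in embryo 2 and *Hesx1* at 0.336 CPM in embryo 5, with every other embryo at 0. In E5.5 epiblast-like cells, 6.67% of the cells of embryo 6 had 2 or more members, against 0% in the others. The E6.5 epiblast-like class (13 embryos) was not among the groups examined. Embryo 6 of plate P2, which was highest there for *Hhex*, *Hesx1* and *Lhx1*, could thus not be flagged.

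Classes that entered no model-based test of a member also held the genes. *Hhex*, *Hesx1* and *Gsc* were detected in 30.3%, 54.5% and 68.7% of E3.5 cells. In E5.5 endoderm-like cells the shares were 25% for *Hhex*, 62.5% for *Hesx1*, 87.5% for *Lhx1* and 50% for *Gsc*. In streak-like cells of 1 embryo they were 50% for *Hhex*, 45.8% for *Hesx1*, 95.8% for *Lhx1* and 20.8% for *Gsc*.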

How the results depend on the processing

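Counts of members called moved as follows. At E4.5 (2 called) the test against the log2 limit called 1 and Ward clustering 0. For VE-like against epiblast-like cells (3 called), the test against the limit, the fit of only these groups and sums of at least 5 cells called 1 each, and embryos without a plate name 0. From PrE-like to VE-like cells (2 called) these 3 settings, leaving out doubles and embryos without a plate name called 1 each. For epiblast-like cells from E5.5 to E6.5 (3 called), the test against the limit and embryos without a plate name called 1 each. The lineage difference between stages (0 called) had 1 with DESeq2 and 1 in embryos without a plate name. Leaving out 1 embryo at a time gave 2 at E4.5, 1 to 3 for the E6.5 lineages, 1 to 2 from PrE-like to VE-like cells, 1 to 3 from E5.5 to E6.5 and 0 in the other comparisons.

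Signs turned in embryos without a plate name for *Hesx1* (-0.64) and *Gsc* (-1.09) in the E6.5 lineages, for *Hhex* from E5.5 to E6.5 epiblast-like cells (-1.38) and for the share with 2 or more members against epiblast-like cells (-10.4 points). On plates P1 to P3 *Hhex* turned to 0.22 from PrE-like to VE-like cells. The cause was not tested. Omitting 1 embryo moved the share differences between -35.9 and -21.6 points and between 24.8 and 41.2 points.

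With the embryo as a replicate block, 0 members were called at E6.5 (*Lhx1* 2.95, adjusted p = 0.068 by edgeR), and at E4.5 *Hhex* (5.55, adjusted p = 0.00253) was gained and *Lhx1* lost (0.0639). The paired share difference was 28.9 points over 8 embryos. Genes called over all fell from 2515 to 632 with the block at E6.5, 839 with only these groups, 1013 with at least 5 cells, 1227 against the limit, 989 on plates P1 to P3, 275 without a plate name and 1406 without E6.75 cells. At E4.5 they went from 709 (4.14% of genes tested) to 1257 with DESeq2, 0.655% of genes against the limit and 323 with Ward clustering, 8.43% with the block and 2% to 2.49% when any 1 of the 5 E4.5 embryos was left out (342 to 426 genes). Between PrE-like and VE-like cells they fell from 1883 to 965, 815, 1172 and 686 against the limit, with only these groups, with at least 5 cells and without a plate name. The E4.5 to E5.5 count went from 917 to 516 against the limit, 2148 with only these groups and 602 without E4.5 embryo 4, and the E5.5 to E6.5 count from 2134 to 971 against the limit, 1353 with only these groups, 1379 with DESeq2 344 without a plate name and 1247 without the E6.5 embryo numbered 2 of no plate name (13489 genes tested). The lineage difference between stages went from 484 to 822 with DESeq2 and 275 against the limit, and from 2.83% of genes to 1.34% with Ward clustering, 1.36% without a plate name and 0.868% to 1.23% without any 1 of the E4.5 embryos. Of the members' own values outside the omissions of 1 embryo, 33 lost the threshold, 9 gained it, 4 turned sign and the rest kept both. Few VE-like cells per embryo, and E5.5 endoderm from 4 embryos, limit every statement on those classes.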
